A study of Mus musculus with 4 samples.

Results

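The Egr transcription factors Egr1, Egr2 and Egr3 and their corepressors Nab1 and Nab2 were followed across the cell types of the mouse kidney in the hours after an injection of fibroblast growth factor 23 (FGF23). The members were taken by gene symbol from the deposited feature lists, where these 5 genes were found among 31053. Single-cell RNA-seq libraries from droplets were made at 0, 1, 4 and 12 h, with 1 library at each time. All mice carried the C57BL/6 background and were 10 weeks old, and male and female kidneys were processed together, so that each library held cells of both sexes. At 1, 4 and 12 h the mice had received 10 µg of recombinant human FGF23 each, by the intraperitoneal route. The 0 h library is labelled with a dose of 0 µg, while the name of its deposited matrix speaks of saline at 1 h, and it is called the 0 h library here. How many mice stood behind a library is not given in the sources used here, so each time point is 1 pooled sample. Kidneys were digested to single cells and dying cells were removed by Annexin V before loading, which all 4 libraries share.

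Egr proteins are zinc finger transcription factors encoded by immediate early genes: growth factor receptors acting through the ERK kinases switch them on by way of serum response factor and its ETS family partners, without new protein synthesis. Nab1 and Nab2 have no DNA-binding domain of their own; they bind a short inhibitory region of Egr1, Egr2 and Egr3 and bring in the NuRD chromatin remodelling complex through Chd4. Nab2 is itself a known Egr target, so the pair forms a feedback loop, whereas Nab1 is generally described as more constant. In the kidney, FGF23 signals through FGF receptors with the co-receptor Klotho (Kl) in the proximal tubule (PT), which reabsorbs phosphate, and in the distal convoluted and connecting tubule (DCT/CNT), which handles sodium and calcium.

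The deposited values were raw UMI counts, each UMI being 1 tagged RNA molecule, for 13398, 12245, 13813 and 13022 barcodes at 0, 1, 4 and 12 h. After filtering, 9038, 8549, 9891 and 9277 cells remained, with median depths of 9849, 11105, 10330 and 8608 UMIs per cell. Cells were clustered without the 5 members and named from marker genes, and every name below carries "like" because it is rebuilt from markers. PT-like cells made up 66.4 to 71.5% of each library and DCT/CNT-like cells 4.61 to 5.54%. Neutrophil-like cells numbered 350 and 323 in the first and second libraries but 79 and 56 in the later ones. The median mitochondrial share of a cell was 20.9, 20.9, 15.8 and 19.4% by time. In all, 279 barcode sequences occurred in more than 1 library. Leaving those out gave log2 ratios at 1 h of 3.29 for Egr1 in PT-like cells and 3.90 in DCT/CNT-like cells, against 3.30 and 3.90 with them. Levels are given as CPM, the UMIs of a gene scaled to the same total for the summed cells of each class. With 1 library per time no test between times was possible, and every 95% interval covers counting error only, not the difference between animals or preparations. A fall or rise of a level within a class cannot be told apart from a change in which cells of that class were captured.

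Egr1 was higher at 1 h in both of the tubule classes in which FGF23 is known to act. At 4 h it was still raised in DCT/CNT-like cells and near its 0 h level in the PT-like class as a whole. That PT-like value joined cells that differed. Of 16 PT-like clusters, 10 had intervals above the 0 h level at 4 h and 3 below it. The 4 h log2 ratio was 1.13 in female-called and -0.68 in male-called PT-like cells. Nab2 followed Egr1 in DCT/CNT-like cells, where it was 14.1-fold higher at 1 h and 8.51-fold higher at 4 h. Nab2 was also the 1 member still more than 2-fold above 0 h there at 12 h. Nab1 stayed within 2-fold of 0 h in both classes at every time. In DCT/CNT-like cells it was still higher at 1 and 4 h, by log2 ratios of 0.92 and 0.86. Under alternative processing these reached up to 1.76 and 1.23. Egr2 was sparse, with 27 of its 65 UMIs at 1 h in DCT/CNT-like cells, and no Egr3 UMI was found in any tubule or collecting duct class. A member was counted as past 2-fold where it had at least 20 UMIs over the pair of libraries compared.

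In PT-like cells, 2 of the 3 members with enough UMIs were past 2-fold higher at 1 h, Egr1 and Nab2, where 0.821% of 13520 genes were higher by as much and 1.55% were lower. None of the 3 was past 2-fold in either direction at 4 h, where 3.05% of 13626 genes were higher and 2.63% lower. At 12 h, 1 of 3 was past 2-fold lower, Egr1, against 2.61% of 13542 genes lower and 2.44% higher. Egr2 and Egr3 had too few UMIs in PT-like cells to be counted at any time. Of 4 members counted in DCT/CNT-like cells, 3 were past 2-fold higher at 1 h, Egr1, Egr2 and Nab2, against 1.31% of 10268 genes higher and 1.81% lower. Egr2 reached the 20 UMIs only through its 1 h library, so it had to differ to be counted. At 4 h, 2 of 3 were past 2-fold higher, Egr1 and Nab2, against 3.46% of 10444 genes higher and 4.41% lower. At 12 h, 1 of 3 was past 2-fold higher, Nab2, against 2.94% of 10475 genes higher and 2.44% lower. Over all genes tested, the median log2 ratio to 0 h lay between 0.01 and 0.04 for PT-like and between -0.06 and 0.00 for DCT/CNT-like cells.

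**Figure D1:**
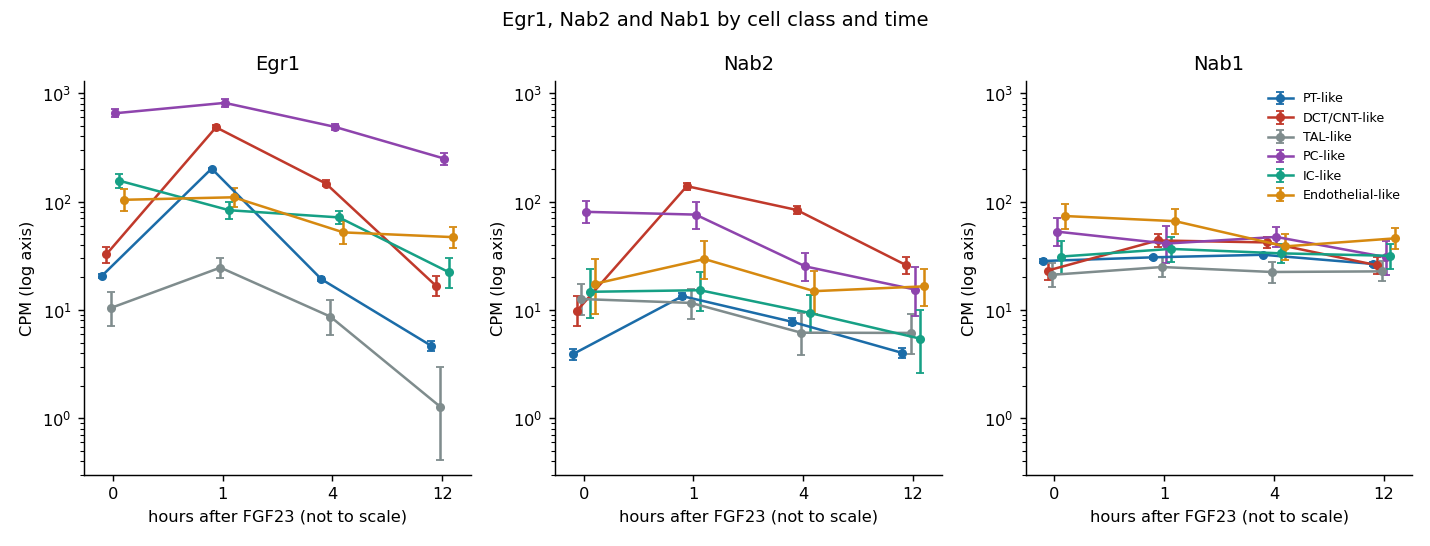
Levels of Egr1, Nab2 and Nab1 (CPM, log axis) at 0, 1, 4 and 12 h in the marker-named cell classes, 1 library per time, with bars for the 95% counting interval. Egr1 goes from 20.6 to 202 CPM in PT-like and from 32.5 to 486 CPM in DCT/CNT-like cells at 1 h, Nab2 goes from 9.84 to 139 CPM in DCT/CNT-like cells, and Nab1 stays between 26.6 and 32.3 CPM in PT-like and between 23.1 and 43.8 CPM in DCT/CNT-like cells.

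Egr1, which binds GC-rich sites to activate growth and wound response genes, lies on chromosome 18 (GRCm38, 34859823 to 34864984, plus strand; ENSMUSG00000038418). In PT-like cells it was at 20.6, 202, 19.2 and 4.66 CPM at 0, 1, 4 and 12 h, from 1726, 17595, 1828 and 359 UMIs. The 1 h library alone was high, and the 12 h library was the lowest. Against 0 h, the 1 h level was 9.83-fold higher (log2 3.30, interval 3.23 to 3.37), the 4 h level differed by a log2 of -0.10 (-0.19 to 0.00), and the 12 h level was 4.41-fold lower (log2 -2.14, -2.31 to -1.98). The 4 h level was 10.5-fold lower than the 1 h level. Split by the sex called in each cell, male-called cells gave a 1 h log2 ratio of 3.00 and female-called cells one of 3.89.

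The DCT/CNT-like cells showed a larger and longer Egr1 excursion, with levels of 32.5, 486, 147 and 16.8 CPM from 142, 2287, 929 and 88 UMIs. The 1 h level was 15.0-fold higher than at 0 h (log2 3.90, 3.66 to 4.16), the 4 h level 4.53-fold higher (log2 2.18, 1.92 to 2.44) and the 12 h level lower (log2 -0.95, -1.35 to -0.56). It was 3.31-fold lower at 4 h than at 1 h, and 8.76-fold lower at 12 h than at 4 h. The counting intervals of the 4 h ratio did not overlap between the DCT/CNT-like and PT-like classes, but with 1 library per time the difference between classes was not tested. Markers of the neighbouring thick ascending limb summed to 7107, 6417, 5718 and 4215 CPM in the DCT/CNT-like cells, and the class's own markers to 26190, 25998, 25720 and 24321 CPM. The part of this shift in the Egr1 values was not tested.

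The size of the 1 h ratio in DCT/CNT-like cells depended on which cells were kept by mitochondrial share. Among cells of 0 to 10% mitochondrial UMIs, Egr1 went from 242 to 705 CPM between 0 and 1 h, a log2 ratio of 1.54 (1.12 to 1.98). In cells of 10 to 25% it went from 74.2 to 559 CPM (log2 2.91). Cells of 25 to 50%, which were 338 of the 441 cells before and 322 of the 394 after, went from 12.7 to 467 CPM (log2 5.20, 4.78 to 5.65). The 1 h levels were alike across the ranges while the 0 h levels differed by more than 10-fold. With the mitochondrial limit at 25% for all cells, the class's log2 ratio was 2.15 at 1 h and 0.80 at 4 h. Nab2 did not vary in this way, with log2 ratios at 1 h of 3.90, 4.51 and 3.76 in the same ranges. Egr1 in PT-like cells gave 4.10, 3.05 and 3.72. The DCT/CNT-like Egr1 ratio was thus the larger of the 2 classes only in cells of 25 to 50%, and the smaller in the other ranges.

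**Figure D2:**
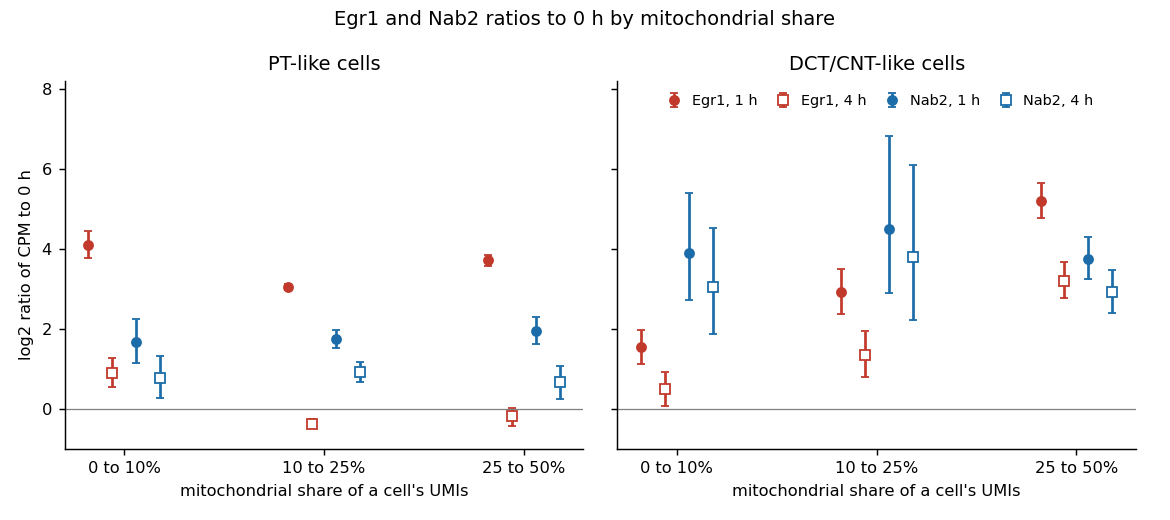
Log2 ratios of CPM to 0 h for Egr1 and Nab2 at 1 h and 4 h in DCT/CNT-like and PT-like cells, split by the share of UMIs from mitochondrial genes, with 95% counting intervals. The levels behind the ratios are not drawn. For Egr1 in DCT/CNT-like cells they were far apart at 0 h, from 12.7 to 242 CPM, and nearer each other at 1 h, from 467 to 705 CPM.

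Counted cell by cell, the 1 h signal was spread over most cells of both classes. At 1 h the median PT-like cell held 2 Egr1 UMIs, 26.6% held none, 5.70% held 10 or more, and the highest held 32. At 0, 4 and 12 h, 91.0, 85.5 and 96.8% of PT-like cells held none. The median DCT/CNT-like cell at 1 h held 4 Egr1 UMIs, 14.0% held none, 19.3% held 10 or more, and the highest held 41. At 0, 4 and 12 h, 86.4, 50.3 and 92.6% of these cells held none, so that at 4 h the class was divided nearly evenly into cells with and without an Egr1 UMI. Median depths were 10215, 11545, 11083 and 9354 UMIs in DCT/CNT-like cells and 12068, 12965, 11540 and 10615 in PT-like cells. Thinned to 2000 UMIs per cell, the share with Egr1 was 2.47, 28.3, 3.29 and 0.708% in PT-like and 5.87, 56.7, 21.4 and 2.99% in DCT/CNT-like cells. In T/NK-like cells, the class with the lowest level at 1 h and so the comparison for RNA picked up from the fluid, the thinned share was 2.17, 1.00, 4.29 and 1.92%. The PT-like shares at 0, 4 and 12 h were thus of the size of those in a class that holds Egr1 UMIs of its own, and how much of them is picked-up RNA was not settled by this: 128 PT-like cells at 0 h held 5 or more Egr1 UMIs. If every read taken up from the fluid had the makeup of PT-like cells, it would supply at most 0.613% of the DCT/CNT-like Egr1 level at 1 h, judged from PT marker genes in those cells.

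**Figure D3:**
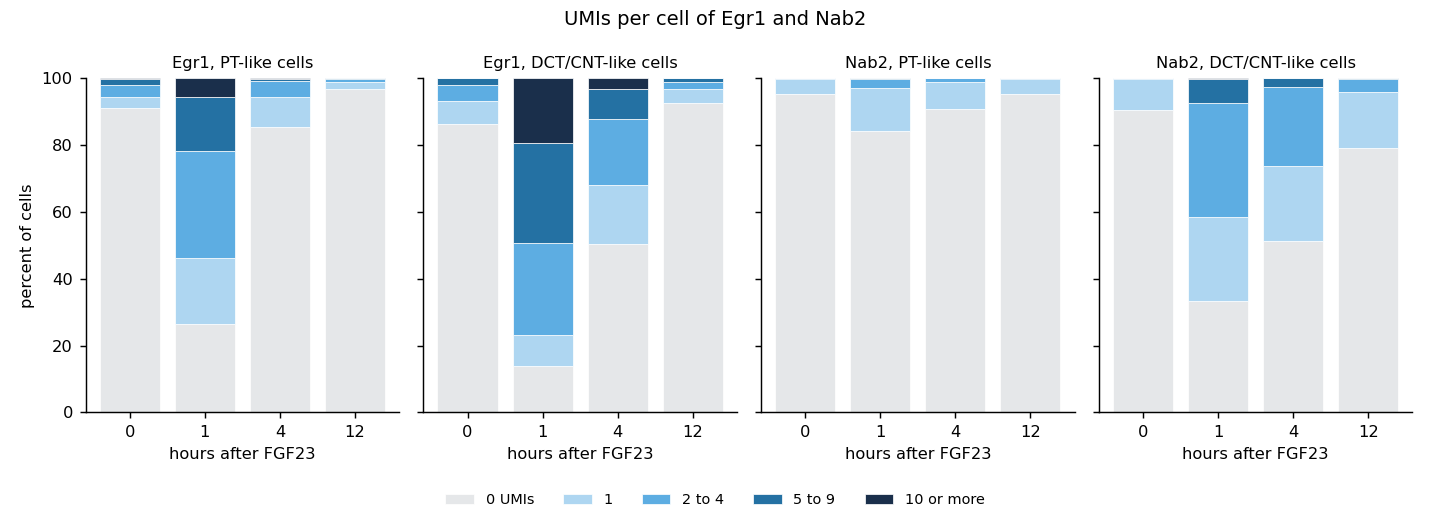
Share of cells (%) holding 0, 1 or more UMIs of Egr1 and of Nab2 in cells of the PT-like and the DCT/CNT-like class, by hours after FGF23. At 1 h only 26.6% of PT-like and 14.0% of DCT/CNT-like cells have no Egr1 UMI, whereas 84.2% of PT-like but 33.5% of DCT/CNT-like cells have no Nab2 UMI.

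Within the proximal tubule, all 16 clusters were at least 2-fold higher for Egr1 at 1 h, with each interval above 0 on the log2 scale. Their levels ran from 0.378 to 46.7 CPM at 0 h and from 78.7 to 274 CPM at 1 h. The clusters thus differed far more before the injection than at the 1 h point. At 4 h the clusters divided, with 10 intervals above the 0 h level and 3 below it. Grouped by segment, the PT-S1/S2-like cells, which do most of the phosphate reabsorption, were at 10.8, 181, 19.5 and 3.99 CPM. PT-S3-like cells, from the straight part, were at 27.9, 223, 18.9 and 5.44 CPM. The log2 ratio to 0 h was 4.06 (3.92 to 4.21) in S1/S2 and 3.00 (2.92 to 3.08) in S3 at 1 h. At 4 h it was 0.85 (0.68 to 1.02) in S1/S2 and -0.56 (-0.68 to -0.44) in S3, so the near-zero value of the whole class at 4 h joined opposite values. Within called sex the segments did not go opposite ways at 4 h, as given below. Segment names depended in part on the clustering: at Leiden resolution 1.0, chosen as an alternative after seeing the data, 21.6% of the 10730 S3-like cells were named S1/S2-like. The Egr1 log2 ratios were then 3.76 and 3.05 at 1 h and 0.53 and -0.51 at 4 h in S1/S2-like and S3-like cells.

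Segment and called sex went together in these cells, since S3-like cells were called male 2003, 1753, 1869 and 1327 times and female 76, 58, 75 and 63 times. In S1/S2-like cells, where both sexes were well represented, Egr1 was at 12.9, 179, 7.49 and 1.32 CPM for male-called cells, and at 14.0, 203, 30.9 and 8.10 CPM for female-called ones. The sexes were close at 0 h and 1 h and apart at 4 h and 12 h, the female-called cells being higher. In the few female-called S3-like cells the levels were 12.9, 265, 25.3 and 2.87 CPM, from 15, 246, 38 and 4 UMIs, against 31.9, 234, 20.9 and 6.53 CPM in male-called ones. Against 0 h, the 4 h log2 ratio was -0.78 in S1/S2-like and -0.61 in S3-like male-called cells. In female-called cells it was 1.14 and 0.97, so the segments went the same way within each called sex. DCT/CNT-like Egr1 went at 1 h from 30.2 to 534 CPM for male-called and from 26.6 to 458 CPM for female-called cells, and at 4 h the sexes were close, at 150.0 and 146 CPM. The kidneys were pooled, so cells of 1 sex in a library may come from as few as 1 animal, and the sex difference was not tested.

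**Figure D4:**
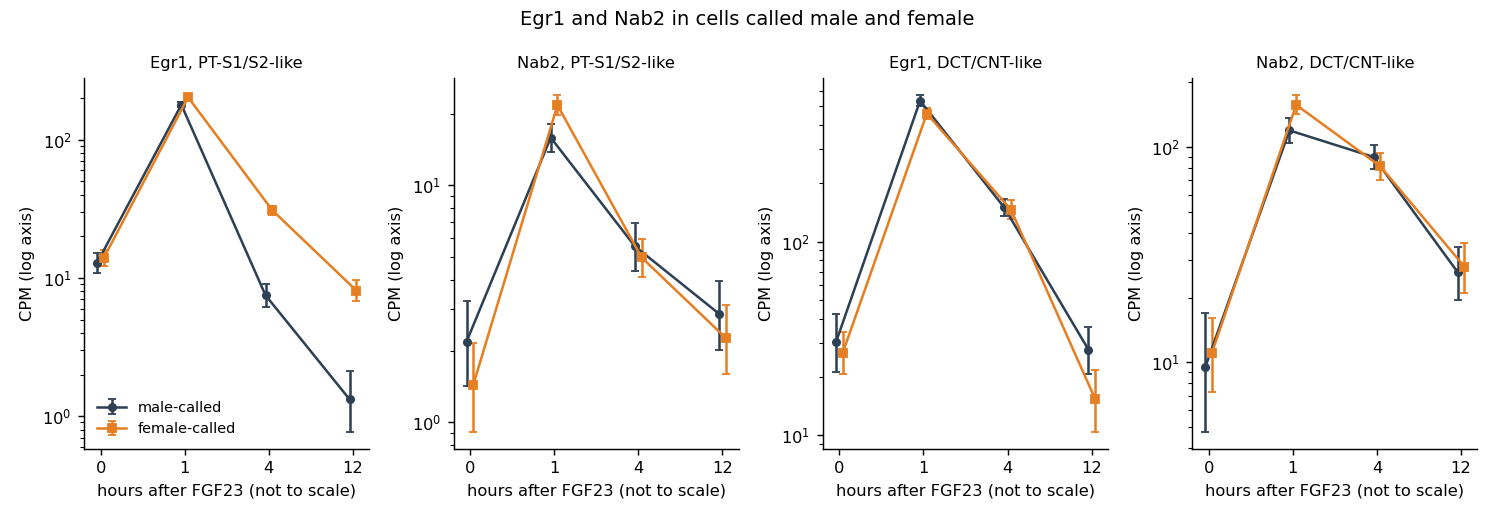
Levels of Egr1 and Nab2 (CPM, log axis) in male-called and female-called cells of the PT-S1/S2-like segment and of the DCT/CNT-like class. Values are by hours after FGF23, with 95% counting intervals. For Egr1 in S1/S2-like cells the sexes overlay at 0 h and 1 h, then part at 4 h, to 7.49 CPM (male-called) and 30.9 CPM (female-called).

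The DCT/CNT-like class held clusters that differed in how long Egr1 stayed high. A cluster led by Slc12a3, the thiazide-sensitive sodium chloride cotransporter of the DCT, was at 38.3, 595, 195 and 21.9 CPM, log2 ratios of 3.96, 2.35 and -0.80 at 1, 4 and 12 h. Another, led by Calb1 and S100g, calcium-binding proteins of the late DCT and CNT, was at 8.27, 105, 8.06 and 2.20 CPM. Its log2 ratio was 3.67 (2.57 to 5.01) at 1 h and -0.04 at 4 h, so the raised 4 h level of the class was that of the Slc12a3-led cluster. A further cluster with mixed CNT and principal cell markers, left unnamed, was at 89.3, 282, 83.9 and 10.2 CPM.

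Outside these classes the Egr1 levels had no common course. At 0 h the highest level was in Neutrophil-like cells (818 CPM), then PC-like cells of the collecting duct (655), IC-like acid-base cells (156), Endothelial-like cells (104), DCT/CNT-like (32.5), B-like (25.8), T/NK-like (21.0), PT-like (20.6) and TAL-like cells of the thick ascending limb (10.4). In that order the DCT/CNT-like and B-like levels overlapped in their counting intervals, as did those of B-like, T/NK-like and PT-like cells, and the other neighbours did not. At 1 h the order was PC-like (817), Neutrophil-like (765), DCT/CNT-like (486), PT-like (202), Endothelial-like (109.7), IC-like (83.3), B-like (61.9), TAL-like (24.6) and T/NK-like (7.47). There, PC-like and Neutrophil-like overlapped, Endothelial-like overlapped with IC-like, and IC-like with B-like. DCT/CNT-like cells thus moved from the fifth to the third place and PT-like cells from the eighth to the fourth.

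PC-like cells already held much Egr1 at 0 h, and their levels of 655, 817, 491 and 249.5 CPM gave log2 ratios of 0.32 (0.15 to 0.49), -0.42 and -1.39. These levels came from 67, 56, 113 and 85 cells, and the top 10% of them held 46.0, 37.0, 55.1 and 46.9% of the Egr1 UMIs. The counting intervals leave out this spread between cells. In IC-like cells the levels were 156, 83.3, 71.5 and 22.3 CPM, lower at each later time. They came from 73, 102, 225 and 134 cells, with 65.9, 72.7, 84.5 and 95.1% of the Egr1 UMIs in the top 10% of cells. These IC-like cells were of opposite kinds: a cluster led by Slc26a4, the pendrin exchanger of type B cells, went from 193 to 70.4 CPM at 1 h, and one led by Slc4a1, the anion exchanger of type A cells, from 43.9 to 108 CPM. RNA from PC-like cells could supply at most 11.3, 15.4, 11.7 and 21.2% of the IC-like Egr1 level by time, and RNA from DCT/CNT-like cells at most 2.90, 20.8, 22.0 and 1.98%. Markers of the DCT/CNT summed to 3644, 928, 2755 and 640.3 CPM in the IC-like cells, and their part in the IC-like values was not tested. Endothelial-like cells were at 104, 109.7, 52.0 and 47.0 CPM, a log2 ratio at 1 h of 0.07 (-0.38 to 0.53). TAL-like cells were at 10.4, 24.6, 8.68 and 1.28 CPM from 32, 87, 31 and 5 UMIs, and the log2 ratio of 1.25 (0.65 to 1.88) at 1 h became -0.48, from 7 against 11 UMIs, when cells above 25% mitochondrial UMIs were left out. Neutrophil-like cells stayed between 611 and 818 CPM in all 4 libraries.

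Nab2, the corepressor known to be induced by the factors it represses, lies on chromosome 10 (GRCm38, 127660918 to 127668568, minus strand; ENSMUSG00000025402). The DCT/CNT-like cells held it at 9.84, 139, 83.8 and 25.8 CPM at 0, 1, 4 and 12 h, from 43, 654, 529 and 135 UMIs. All 3 later libraries were above the 0 h library, and none of the intervals overlapped. The ratios to 0 h were 14.1-fold at 1 h (log2 3.82, 3.38 to 4.30), 8.51-fold at 4 h (log2 3.09, 2.64 to 3.57) and 2.62-fold at 12 h (log2 1.39, 0.88 to 1.92). Nab2 was 1.66-fold lower at 4 h than at 1 h while Egr1 in the same cells was 3.31-fold lower, and at 12 h Nab2 was above its 0 h level while Egr1 was below its own. Male-called cells gave log2 ratios of 3.65, 3.24 and 1.46, and female-called cells 3.83, 2.88 and 1.33, so the course was present in cells of both sexes. The share of DCT/CNT-like cells with no Nab2 UMI was 90.5, 33.5, 51.4 and 79.2%.

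The Nab2 levels in PT-like cells were much lower, at 3.89, 13.4, 7.76 and 4.01 CPM from 327, 1170, 738 and 309 UMIs. The 1 h level was 3.45-fold higher than at 0 h (log2 1.79, 1.61 to 1.97), the 4 h level 1.99-fold higher (log2 1.00, 0.81 to 1.19), and the 12 h level differed by a log2 of 0.04 (-0.19 to 0.27). Because the 4 h ratio sits at the 2-fold line, Nab2 was counted as past it when the barcodes shared between libraries were left out. This class ratio also joined segments with different values. In S1/S2-like cells Nab2 was at 1.55, 17.6, 5.14 and 2.62 CPM, a log2 ratio of 3.51 (3.12 to 3.93) at 1 h. In S3-like cells it was at 5.68, 9.23, 10.4 and 5.61 CPM, a log2 ratio of 0.70 (0.48 to 0.93) at 1 h. At resolution 1.0 the 1 h ratios were 3.02 and 0.66. The segment with the lower 0 h level was thus the higher one at 1 h, and the S3-like cells were as high at 4 h as at 1 h.

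For all PT-like cells the 1 h log2 ratio of Nab2 was 1.16 among male-called cells but 3.81 among female-called cells, a split that mixes sex with segment. Within S1/S2-like cells it was 2.85 in male-called cells, from 2.19 to 15.9 CPM, and 3.93 in female-called cells, from 1.44 to 21.8 CPM. Of the 16 PT-like clusters, 15 were higher for Nab2 at 1 h, 11 with an interval above 0, and 10 were past 2-fold higher and 1 past 2-fold lower. Egr1 was past 2-fold higher in all 16 of them. Nab2 levels in these clusters ran from 0.378 to 7.16 CPM at 0 h and from 1.49 to 25.5 CPM at 1 h.

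In the DCT/CNT-like class the Slc12a3-led cluster carried most of the Nab2, at 10.8, 176, 107 and 29.9 CPM (log2 ratios of 4.03, 3.31 and 1.47). The Calb1- and S100g-led cluster was at 5.91, 10.6, 16.1 and 13.9 CPM from 5, 11, 26 and 19 UMIs. Its log2 ratio was 0.84 (-0.80 to 2.72) at 1 h, an interval that spans 0, against 3.67 for Egr1 in the same cells. The unnamed cluster with CNT and principal cell markers was at 15.1, 68.0, 46.2 and 13.4 CPM.

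PC-like cells, rich in Egr1 at every time, had the highest Nab2 level at 0 h, and it was lower at the late times, at 80.5, 75.9, 25.2 and 15.4 CPM. The log2 ratio was -0.08 at 1 h, -1.68 at 4 h (interval -2.23 to -1.14) and -2.39 at 12 h (-3.27 to -1.60). TAL-like cells were at 12.6, 11.6, 6.16 and 6.13 CPM, log2 ratios of -0.13, -1.04 and -1.04. Endothelial-like cells were at 17.4, 29.5, 14.9 and 16.5 CPM, and the 1 h log2 ratio of 0.76 had an interval from -0.26 to 1.85. IC-like cells were at 14.7, 15.2, 9.37 and 5.44 CPM. None of these classes showed the course of the DCT/CNT-like cells, and in Neutrophil-like cells, the class richest in Egr1 at 0 h, Nab2 gave 1, 1, 0 and 1 UMIs. The Neutrophil-like Nab2 level at 0 h was 1.60 CPM, with an interval up to 8.91 CPM.

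The Nab2 gene overlaps others on the opposite strand: Stat6 at its 3′ end, Nemp1 at its 5′ end, and the antisense gene Gm16229 within it. Stat6, a cytokine-activated transcription factor, was at 14.2, 13.6, 18.4 and 16.6 CPM in DCT/CNT-like cells, a log2 ratio of -0.06 (-0.59 to 0.47) at 1 h. Nemp1, a nuclear membrane protein, was at 5.72, 5.74, 6.02 and 4.01 CPM. Neither showed the Nab2 course.

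Nab1, the other corepressor, lies on chromosome 1 (GRCm38, 52457294 to 52500679, minus strand; ENSMUSG00000002881). Of the members, 3 of 5 were matched to RefSeq promoter sequences of 300 bases on GRCm38.p6, with 250 bases before and 50 after a start site, and they gave 7 windows. Those of Nab1 held the Egr1 consensus GCGTGGGCG on both strands and a related GC-rich variant, GCGGGGGCG, within 151 bases of the start. The 3 stretches below are shown because they hold the letters that Egr proteins are known to bind. The letters of each match are in capitals and each line reads 5′ to 3′ on the minus strand, which Nab1 is transcribed from.
Nab1 chr1:52500570-52500599: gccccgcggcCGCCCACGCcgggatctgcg
Nab1 chr1:52500538-52500567: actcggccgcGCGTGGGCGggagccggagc
Nab1 chr1:52500467-52500496: gcggggcgggGCGGGGGCGgcggaggtggc
Searched the same way, the Nab2 window held no match, which says only that these letters are not in that window. Searched on both strands, the consensus occurred in 0.612% and the variant in 2.91% of 32851 promoter windows of the same length. A match describes letters only, and binding was not measured.

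Nab1 was present in each of the 9 classes and stayed within 2-fold of its 0 h level in the PT-like and the DCT/CNT-like class. In PT-like cells it was at 28.3, 30.6, 32.3 and 26.6 CPM from 2374, 2666, 3072 and 2049 UMIs, log2 ratios of 0.12 (0.04 to 0.20), 0.19 (0.12 to 0.27) and -0.09. In the same cells, none of the 16 clusters passed 2-fold at 1 h, with levels of 17.5 to 47.7 CPM at 0 h and 14.9 to 44.3 CPM at 1 h. DCT/CNT-like cells were at 23.1, 43.8, 42.0 and 25.8 CPM from 101, 206, 265 and 135 UMIs. Both the 1 h and the 4 h library were higher there, 1.90-fold (log2 0.92, 0.57 to 1.28) and 1.82-fold (log2 0.86, 0.52 to 1.21), and the 12 h library was near 0 h. In female-called DCT/CNT-like cells the 1 h log2 ratio was 1.21 (0.76 to 1.69), and in male-called ones 0.49 (-0.18 to 1.20), intervals that overlap. With the 25% mitochondrial limit the class gave 1.76 (0.92 to 2.68).

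Elsewhere, TAL-like cells held 21.1, 24.9, 22.4 and 22.7 CPM of Nab1, and IC-like cells 31.1, 36.6, 33.3 and 31.6 CPM, both flat within their intervals. PC-like cells were at 52.9, 41.0, 47.2 and 30.7 CPM. The highest 0 h level was in Endothelial-like cells, at 73.6, 66.0, 38.6 and 45.8 CPM, with log2 ratios of -0.93 (-1.50 to -0.36) at 4 h and -0.68 (-1.20 to -0.16) at 12 h. T/NK-like cells were at 54.6, 66.0, 43.4 and 43.0 CPM. Neutrophil-like cells, where Nab2 gave at most 1 UMI per library, held Nab1 at 30.4, 18.7, 26.6 and 53.8 CPM, from only 19, 11, 4 and 5 UMIs.

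Egr2, a family member best known from myelinating Schwann cells and lymphocytes, lies on chromosome 10 (GRCm38, 67535475 to 67542188, plus strand; ENSMUSG00000037868). Its promoter windows held CArG boxes, the letters bound by serum response factor, and next to 1 of them an ETS core, CCGGAA, the kind of site at which the ERK-driven partners of serum response factor bind. The 2 stretches below, on the plus strand, are shown because they hold the letters of the pathway described above, with the matches in capitals.
Egr2 chr10:67537494-67537523: CCTTTTTTGGaaagtctcggagaaCCGGAA
Egr2 chr10:67537787-67537816: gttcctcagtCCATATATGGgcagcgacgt
A CArG box occurred in 1.63% and the ETS core, on either strand, in 14.9% of the 32851 windows.

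Egr2 UMIs were few, and 17, 65, 11 and 17 were counted over all cells at 0, 1, 4 and 12 h. DCT/CNT-like cells gave 0, 27, 6 and 1 of them, although this class was about 5 in 100 cells. At 1 h the class level was 5.74 CPM (3.78 to 8.36), from 22 cells, and it was at least 8.37-fold higher than at 0 h when the 0 h library is set at a floor of 3 counts. At 0 h, 0 of 441 cells had an Egr2 UMI, which allows a share of up to 0.680%. Both sexes contributed, 8 of the 1 h UMIs lying in male-called cells and 14 in female-called ones. All 22 Egr2-positive cells at 1 h also held Egr1, and 339 of the 394 DCT/CNT-like cells did. In PT-like cells Egr2 gave 1, 18, 0 and 0 UMIs, a log2 ratio of 4.12 at 1 h with an interval from 1.46 to 9.50, and 16 of the 18 were in S1/S2-like cells. PC-like cells gave 0, 5, 0 and 0. Of the 17 UMIs at 12 h, 12 came from 3 T/NK-like cells, and Neutrophil-like cells gave 7 of those at 0 h.

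Egr3, which acts in lymphocytes and muscle spindles, lies on chromosome 14 (GRCm38, 70077203 to 70082614, plus strand; ENSMUSG00000033730). No Egr3 UMI was counted in PT-like, DCT/CNT-like, TAL-like, PC-like or IC-like cells in any of the 4 libraries. For PT-like cells this allows a share of cells with a UMI of up to 0.0424 to 0.0493% per library, and for DCT/CNT-like cells of up to 0.548 to 0.761%. Of its 46, 28, 8 and 25 UMIs over all cells, 10, 13, 3 and 7 were in B-like cells, 13, 3, 2 and 1 in Neutrophil-like cells and 3, 0, 1 and 7 in T/NK-like cells, and most of the others were in cells of small or unnamed clusters. Egr4, which was no member, had 0 UMIs in all cells used.

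Co-detection was examined after thinning every cell to 5000 UMIs, since deeper cells hold more of every gene. Nab2 at 1 h was found, in DCT/CNT-like cells, in 56.3% of Egr1-positive cells (50.2 to 62.3) and 19.5% of Egr1-negative cells (11.3 to 30.1). At 4 h the shares were 43.8% (36.4 to 51.4) and 22.0% (17.4 to 27.3). At 0 h they were 6.45 and 4.86%, and at 12 h 15.0 and 12.8%. The intervals were apart at 1 and 4 h and not at 0 and 12 h. Without thinning, the shares at 1 h were 73.2 and 25.5%. PT-like cells showed a narrower gap at 1 h, 8.24 against 5.97% after thinning and 18.2 against 9.20% before it. Cells of 1 library are not replicates, the class holds clusters that differ in both genes, and the part of cluster makeup in the gap was not tested.

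**Figure D5:**
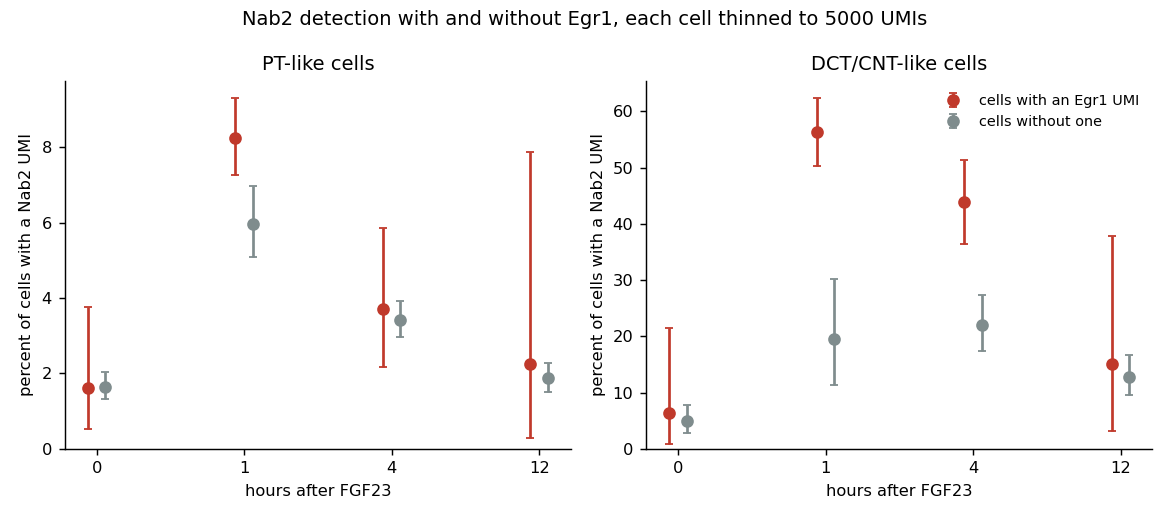
Share of cells (%) with a Nab2 UMI among Egr1-positive and Egr1-negative cells of the DCT/CNT-like and PT-like classes, thinned to 5000 UMIs per cell, by hours after FGF23, with exact binomial 95% intervals. In DCT/CNT-like cells the shares are 56.3 and 19.5% at 1 h and 43.8 and 22.0% at 4 h, and the intervals overlap at 0 and 12 h.

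Klotho, the FGF23 co-receptor, was at 209, 193, 129 and 123 CPM in PT-like and 1222, 1278, 1134 and 775 CPM in DCT/CNT-like cells. It was also found in PC-like cells, at 147, 146, 177 and 107 CPM, and in TAL-like cells, at 149.5, 168, 118 and 145 CPM, where Egr1 did not take the course seen in DCT/CNT-like cells. Within the DCT/CNT-like class, after thinning to 5000 UMIs, Egr1 was found in 6.62, 76.6, 34.9 and 4.36% of cells with a Kl UMI and in 19.0, 85.4, 53.5 and 7.87% of cells without one. Without thinning, the shares were 12.2, 86.9, 49.4 and 7.67% with and 21.9, 76.5, 52.0 and 6.19% without a Kl UMI, so the direction at 1 and 12 h depended on the thinning. In PT-like cells at 1 h the shares were 54.3 and 52.4% after thinning, although they were 78.6 and 55.6% before it.

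The genes known to act around the members differed less between times than Egr1 and Nab2 did. Of 17 listed genes of the upstream pathway (kinases of the ERK cascade, serum response factor and its partners), 15 were found. Of these, 14 had enough UMIs in PT-like and 15 in DCT/CNT-like cells, and none passed 2-fold there at any time. Their median log2 ratios at 1, 4 and 12 h were 0.01, 0.04 and -0.09 in PT-like cells and 0.03, -0.08 and -0.08 in DCT/CNT-like cells. None of the 13 chromatin partners through which Nab proteins repress, such as Chd4, passed 2-fold either, with medians of 0.05, 0.03 and -0.08 and of 0.13, 0.28 and 0.08. Of 4 related zinc finger factors, 2 had enough UMIs in each class and neither passed 2-fold. Against 0 h, 2.37 to 5.68% of all genes tested passed 2-fold either way in PT-like cells. In DCT/CNT-like cells 3.13 to 7.87% did. For lists this short, none past 2-fold is near those shares.

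Genes reported as targets of Egr factors, not of Egr1 alone, were counted in the same way, beside the shares of all genes given above. Of 19 listed, 16 had enough UMIs in PT-like cells at 1 h, where none was past 2-fold higher, against 0.821% of all genes. At 4 h, where 3.05% of all genes were past 2-fold higher, 2 of 15 were, the growth factor Tgfb1, from 0.726 to 3.79 CPM, and the cell cycle inhibitor Cdkn1a, from 4.89 to 15.2 CPM. Among those past 2-fold lower at 4 h was the cyclin Ccnd1, from 48.5 to 23.3 CPM. At 12 h 1 of 16 was past 2-fold higher, Tgfb1, at 2.51 CPM. The median log2 ratio of the targets at 1, 4 and 12 h was 0.12, 0.50 and -0.02 for PT-like cells, and -0.06, 0.71 and -0.20 for DCT/CNT-like cells. Of the DCT/CNT-like values 1 of 10 was past 2-fold higher at 1 h, Cdkn1a, from 29.1 to 64.2 CPM. At 4 h, 4 of 11 were higher: Ptges, which makes prostaglandin E2, from 18.8 to 65.5 CPM, Cdkn1a, Pdgfb and the clotting initiator F3. Ptges was still higher at 12 h, by a log2 of 2.15, and the ubiquitin ligase Cblb was lower, by a log2 of -1.35. The list was assembled from general knowledge, and target status in kidney was not measured.

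Heat shock genes, which respond to handling of tissue, were measured beside the members. The 12 listed genes summed to 5162, 5017, 5923 and 5209 CPM in PT-like and 3575, 3927, 4263 and 3396 CPM in DCT/CNT-like cells, and none of the 12 was past 2-fold against 0 h in PT-like cells. By segment the sums were 5302, 5068, 5095 and 4998 CPM in S1/S2-like and 5055, 4966, 6757 and 5451 CPM in S3-like cells. At 4 h, where the segments taken whole differ in their Egr1 and Nab2 ratios to 0 h, the S3-like sum was the higher. Among them Hspa1b, in DCT/CNT-like cells at 1 h, was at 121 CPM against 56.5 CPM at 0 h, a log2 ratio of 1.10, and at 12 h Hspb1 was at a log2 ratio of -1.47. Their part in the Egr1 and Nab2 levels was not tested.

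Over the 36 points given by 9 classes in 4 libraries, the genes with levels most like Egr1 were Trib1 and Ddx3x (Pearson r of log2 of CPM plus 1, 0.82 each), Ptp4a1 (0.81), Atp6v0d1 (0.79) and Pum2 (0.78). Among those most like Nab1 were Wdr82 (0.80), Sar1a (0.75), Vps72 and Rbm7 (0.74 each). Those most like Nab2 were Mpv17l2 and Mosmo (0.74 each), followed by Cab39l, Bhlhb9 and Ankrd17 (0.73 each). The points share libraries and cell depth, so these values are descriptions. Between members, the coefficient was 0.13 for Egr1 and Nab2, 0.25 for Egr1 and Nab1 and 0.49 for Nab1 and Nab2. Egr2 and Egr3, with under 100 UMIs over these points, were left out of this comparison.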

How the data were processed

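Kidney cells from 4 libraries, 1 per time point, were measured by droplet RNA-seq with UMIs. The authors deposited raw UMI counts per gene and barcode, made with Cell Ranger 3.1.0, STAR and the mm10 build, per the submitters' processing notes, which also name Seurat. Everything below was computed from these counts. No deposited column was left unused by mapping (0 unused columns), and 31011 of 31053 gene IDs (99.9%) matched the GENCODE vM21 annotation of GRCm38. The members and gene lists were chosen with earlier results of these data known.

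Barcodes with at least 300 genes and at most 50% mitochondrial UMIs were kept, and the rest (2621 to 3245 barcodes per library over the mitochondrial limit) were left out. Doublets were scored against simulated doublets (30 neighbours, expected share 0.8% per 1000 barcodes), and 9.79 to 11.1% were removed. Clustering (30 principal components, 20 neighbours, Leiden resolution 1.5) used 2026 variable genes, without the members, listed genes, early response, sex-linked, mitochondrial and ribosomal genes. Clusters were named from marker genes, with thresholds set after the clusters were seen: 3 detected markers and a lead of 0.5 on the log2 scale. No name was given where markers of another class led or tied, to immunoglobulin-led clusters outside B-like ones, or to clusters of over 50% doublets. Clusters with no marker of their own class among their 10 leading genes also stayed unnamed, except PT-like clusters that were not shallow. From 5.02 to 5.31% of cells per library stayed unnamed. Sex was called per cell from sex-linked genes. Counts were summed per class and library and divided by the class's total.

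With 1 library per time no test was run. Intervals of levels are exact Poisson, those of ratios conditional binomial, and those of shares exact Clopper-Pearson, all at 95%, and they cover counting error only. Where no cell held an Egr2 or Egr3 UMI, the upper limit given for the share is instead 3 divided by the number of cells. Where a count was 0, 0.5 was added to both counts of a ratio, and the floor is 3 counts. Past 2-fold needs at least 20 UMIs over both libraries. Thinning used 2000 and 5000 UMIs per cell, leaving out shallower cells. Named were the 5 members, list genes past 2-fold, list medians and the genes most like each member, and, chosen after their values were seen, the genes that overlap Nab2. The ratio code was tested on simulated data. Alternatives were another mitochondrial limit, doublets kept, another resolution, equal weight per cell, other scalings, no UMI minimum, each sex alone and shared barcodes left out, and, chosen after seeing the data, cells of 25 to 50% mitochondrial UMIs alone and the leading cluster or segment alone. Python 3.11.15, numpy 2.4.6, scipy 1.17.1, pandas 2.3.3, scikit-learn 1.9.0, leidenalg 0.10.2, igraph 0.11.9 and matplotlib 3.10.9 were used. A later time point named in the protocol was not analysed here. Some values of genes in the lists are not reported here.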

Additional observations from a re-analysis of the deposited data

Results flagged for a closer look

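Several results stand out because cell groups went opposite ways under the same contrast with 0 h, each with a counting interval on its own side of 0. None of these differences was tested, since each time has 1 library.

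For Egr1 at 1 h, the log2 ratio was 3.30 in PT-like, 3.90 in DCT/CNT-like, 1.25 in TAL-like and 1.26 in B-like cells but -1.49 in T/NK-like cells, the last from few UMIs. The 2 clusters of intercalated cells also parted at 1 h, with -1.45 in the Slc26a4-led and 1.30 in the Slc4a1-led cluster. At 4 h Egr1 was at 2.18 in DCT/CNT-like cells against -1.12 in IC-like and -1.00 in Endothelial-like cells.

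By called sex, Egr1 in PT-like cells at 4 h was at -0.68 for male-called but 1.13 for female-called cells. The sign differed within segments too, at -0.78 and 1.14 in S1/S2-like cells and -0.61 and 0.97 in S3-like cells. Nab2 at 1 h in PC-like cells was at -1.07 for male-called but 0.99 for female-called cells, from 51 and 13 UMIs and from 16 and 32 UMIs at 0 and 1 h. Few cells stood behind these values, 39 and 24 male-called and 22 and 25 female-called ones.

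For Nab2 at 4 h, the ratio was 1.00 in PT-like and 3.09 in DCT/CNT-like cells, and -1.04 in TAL-like and -1.68 in PC-like cells. At 12 h it was 1.39 in DCT/CNT-like cells, against -1.04 in TAL-like, -2.39 in PC-like and -1.43 in IC-like cells.

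The barcodes left out for holding over 50% mitochondrial UMIs, used in no comparison above, also carried the members. Their Egr1 level gave a log2 ratio of 3.37 at 1 h and 0.81 at 4 h, and their Nab2 level 1.91 and 0.79.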

How the results depend on the processing

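No paired analysis was possible because each group has 1 library. Counting intervals leave out differences between animals, which the design cannot measure, and Egr2 and Egr3 were limited by depth. The 1 h ratio of Nab2 in DCT/CNT-like cells stayed within its counting error under every alternative run, from 3.58 to 4.15 on the log2 scale. Egr1 in PT-like cells at 1 h (3.30) moved to 3.14 with the 25% mitochondrial limit, 3.50 with cells weighted equally, 3.00 in male-called, 3.89 in female-called and, chosen after seeing the data, 4.06 in S1/S2-like cells and 3.72 in cells of 25 to 50% mitochondrial UMIs. In DCT/CNT-like cells (3.90) it moved to 2.15 with the 25% limit, 3.47 at Leiden resolution 1.0, 3.62 with equal weights and 5.20 in cells of 25 to 50%. Nab2 in PT-like cells (1.79) moved to 2.21 with equal weights, 1.16 in male-called, 3.81 in female-called and 3.51 in S1/S2-like cells. The sign changed for Egr1 in TAL-like cells at 1 h, to -0.48 with the 25% limit, from 7 and 11 UMIs. The number of members past 2-fold in PT-like cells at 4 h was 0, and 1 with no UMI minimum, resolution 1.0, equal weights, shared barcodes left out or S1/S2-like cells alone, and 2 in female-called cells. At 12 h it was 1 in PT-like cells, 2 with no minimum and 0 in female-called cells. In DCT/CNT-like cells at 12 h it was 1, and 2 with no minimum, the 25% limit, doublets kept, resolution 1.0 or equal weights. At 1 h the number ranged from 2 to 3 in PT-like and 2 to 4 in DCT/CNT-like cells, and at 4 h from 2 to 3 in DCT/CNT-like cells. Among the other recomputed values, 105 of the main ones and 497 of the rest stayed within counting error (or, for numbers of members, within 1.5 times), and 76 of the rest moved beyond it. The cause of each shift was not tested.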
